A study of Homo sapiens with 6 samples.

Results

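These are 4447 genomic regions that carried an R-loop peak in all 3 shT2 samples of SH-SY5Y neuroblastoma cells and in none of the 3 shNC3 samples. They were chosen on presence and absence in the 6 peak lists. All peaks were merged where they touched or overlapped, which gave 75758 regions, and 1 bp of overlap with any of its peaks made a region present in a sample. The members are 5.87% of the merged regions. The same rule with the hairpins exchanged gave 2170 regions (2.86%), and 15574 regions (20.6%) were peaked in all 6 samples. Because the rule uses the comparison of the hairpins, the members' own levels in the samples are a description and were not tested.

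The series concerns knockdown of TDP-43 (gene TARDBP) in SH-SY5Y, a human neuroblastoma line obtained from ATCC. The cells were infected with lentivirus made from the vector pLVX-U6-shRNA1, in which a U6 promoter drives a short hairpin RNA, and were selected and kept in puromycin. The hairpins are named shT2 and shNC3; the labels do not spell out their targets, and the names are read here as TDP-43 knockdown for shT2 and negative control for shNC3. Whether the 3 samples per hairpin came from separate infections or cultures is not in the labels, so each hairpin stands for 1 selected population and the spread between its samples may be technical.

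An R-loop is a stretch of DNA in which an RNA strand pairs with its template and leaves the other DNA strand single. R-loops form mostly behind transcribing RNA polymerase, are common at gene starts and past gene ends, and are removed by RNase H enzymes and by helicases. DRIP-seq cuts purified nucleic acid with restriction enzymes, pulls down the hybrids with the S9.6 antibody and sequences the recovered DNA. TDP-43 is a nuclear RNA-binding protein that prefers UG-rich RNA, represses cryptic exons and is lost from the nucleus in amyotrophic lateral sclerosis.

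The ends of the members are shown first because they set how a width can be read. Of the members, 2458 (55.3%) had at least 1 end at the same base in all 3 shT2 lists. Sequence was available in RefSeq promoter windows of GRCh38.p14, from 250 bases before to 50 bases after a gene start. In these windows, 487 peak ends recurred at the same base in 3 or more samples, and 485 of them (99.6%) lay at a cut site of BsrGI (TGTACA), EcoRI (GAATTC), HindIII (AAGCTT), SspI (AATATT) or XbaI (TCTAGA), the enzymes of the digestion. Of the 8205 ends found in 1 or 2 samples, 410 (5.0%) did so. All 16 recurrent member ends in these windows lay at a cut site. The highest-ranked such end for each enzyme is shown here from the + strand, with the recognition site in capitals.
ELAPOR1 member, left end (chr1:109112809-109112838, + strand, EcoRI): tctatgacagagGAATTCcctcagaggagg
RSL24D1 member, right end (chr15:55196914-55196943, + strand, HindIII): caaacaaacgccAAGCTTgagaggaagtga
TH2LCRR member, left end (chr5:132641862-132641891, + strand, SspI): aaaactcaataaAATATTtatacctgcttt
CCDC124 member, left end (chr19:17932772-17932801, + strand, XbaI): taaaggcaatgtTCTAGAttttcgcctctg
FAM162A member, right end (chr3:122384118-122384147, + strand, BsrGI): ctggcgcaggccTGTACAccgcgtcgcgca
At such ends the extent of a member is set by a cut site. Both ends were at a shared base in 301 members (6.77%), and the position of the other ends was not matched to cut sites outside the promoter windows.

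The gene-start members differed in base composition from the gene starts peaked with both hairpins. Of 35116 promoter windows of 300 bases, 135 windows of 121 genes lay wholly inside a member. Their median G+C content was 57.3%, against 67.3% for 6990 windows inside regions peaked in all 6 samples, 68.2% for 304 windows inside regions peaked in all shNC3 samples only and 58.7% for all windows. The median number of CpG dinucleotides per window was 17 in members, 28 in the regions of all 6 samples and 27 in the shNC3-only regions. A run GGGG on either strand was present in 91.1% of the member windows, 98.4% of the windows peaked in all 6 samples and 89.6% of all windows. The repeat TGTGTG, on either strand, was present in 16.3% of the member windows, 11.6% of the windows peaked in all 6 samples and 17.2% of all windows. In these measures the member windows were closer to all gene starts than to the gene starts peaked in both hairpins.

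The bases before the start are printed for 4 of the gene-start members with the highest peak ranks, to show how widely they vary. Runs of 4 or more G or C are in capitals, and each line gives the 250 bases before the start of the named gene, 5′ to 3′ on its own strand.
ELAPOR1 (chr1:109113865-109114114, + strand): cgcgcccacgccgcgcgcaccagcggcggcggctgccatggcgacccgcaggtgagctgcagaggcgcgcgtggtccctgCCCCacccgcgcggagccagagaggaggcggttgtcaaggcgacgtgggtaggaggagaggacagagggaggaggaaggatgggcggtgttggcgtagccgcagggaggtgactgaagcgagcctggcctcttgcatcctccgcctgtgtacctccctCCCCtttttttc
INSM2 (chr14:35533914-35534163, + strand): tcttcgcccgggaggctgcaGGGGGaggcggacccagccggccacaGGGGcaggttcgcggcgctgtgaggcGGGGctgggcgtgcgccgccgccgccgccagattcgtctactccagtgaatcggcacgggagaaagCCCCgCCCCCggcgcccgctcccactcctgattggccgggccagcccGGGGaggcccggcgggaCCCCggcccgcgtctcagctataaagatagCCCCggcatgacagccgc
RGS4 (chr1:163071655-163071904, + strand): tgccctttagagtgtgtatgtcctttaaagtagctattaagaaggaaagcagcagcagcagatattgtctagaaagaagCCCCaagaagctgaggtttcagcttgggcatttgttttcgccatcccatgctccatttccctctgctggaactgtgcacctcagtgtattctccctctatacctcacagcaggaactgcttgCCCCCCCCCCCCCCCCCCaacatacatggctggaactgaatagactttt
H4C5 (chr6:26204360-26204609, + strand): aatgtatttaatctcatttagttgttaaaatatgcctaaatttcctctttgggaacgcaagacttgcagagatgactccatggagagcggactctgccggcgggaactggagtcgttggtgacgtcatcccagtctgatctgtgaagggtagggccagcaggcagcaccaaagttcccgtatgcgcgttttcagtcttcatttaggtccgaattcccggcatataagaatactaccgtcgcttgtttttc
The G+C content of the 300-base windows was 73.0% for INSM2, a zinc finger factor of neuroendocrine cells, and 69.3% for ELAPOR1, a regulator of autophagy. It was 50.3% for RGS4, a GTPase activator that ends G protein signalling, and 47.7% for H4C5, a histone H4 gene. INSM2 had 8 runs of G or C in the printed stretch, RGS4 had 2 and H4C5 had 0. CpG counts in the 300-base windows were 35 for INSM2, 28 for ELAPOR1, 17 for H4C5 and 2 for RGS4.

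Each shT2 list held between 49068 and 50971 peaks and each shNC3 list between 42717 and 45390. Depth is not in the lists and was inferred from each peak's fold and −log10 p, on the assumption of a Poisson p-value as MACS2 computes it. On that basis the shT2 pulldown libraries were deeper, at 3.08 to 3.46 fragments per base against 1.65 to 1.79, a ratio of means of 1.9. Samples of the same hairpin shared more covered bases (Jaccard index 0.676 to 0.718) than samples of different hairpins (0.552 to 0.567). TARDBP held no member and 1 shNC3-only region. It held 1 member when only peaks of at least 5-fold enrichment, or only those with q-values of at most 0.001, were counted. Without shNC3 replicate 1 it also held 1. The covered length of TARDBP was 9.7, 9.57 and 7.82 kb in shT2 and 11.7, 10.6 and 10.2 kb in shNC3. Neither its RNA nor its protein was measured. Of 10 markers of noradrenergic neuroblastoma cells, 8 had peaks in all 6 samples, CHGB had one in 1 sample and TH had none. The summed covered length of this marker list was 91.3 to 94.7 kb in shT2 and 71.8 to 72.6 kb in shNC3. Of 6 markers of fibroblasts and other mesenchymal cells, COL1A2, COL3A1 and LUM had no peak in any sample, and the list summed to 0 to 0.334 kb in shT2 and 17.0 to 17.2 kb in shNC3. Most of the shNC3 sum was COL1A1, at 13.3 to 13.7 kb. Of 3 epithelial markers, CDH1 had no peak, KRT8 had peaks in shNC3 samples only (5.28 to 6.46 kb) and EPCAM in 2 shT2 samples only (0.311 and 0.558 kb), so the list summed to 0 to 0.558 kb in shT2 and 5.28 to 6.46 kb in shNC3. The blood markers PTPRC, CD3E and SPI1 had no peak in any sample. In bulk samples, fewer cells of a type and less hybrid per cell cannot be told apart, and the part of these marker differences in the results below was not tested.

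Members were narrow and of middling strength within their own lists. Their median width was 1078 bp, against 3291 bp for regions peaked in all 6 samples and 1072 bp for the shNC3-only regions, and 195 members (4.38%) were wider than 3 kb. They made up 5.53%, 5.63% and 5.48% of the covered length of shT2 replicates 1 to 3. Enrichment at the summit is the authors' value for a peak, a fold over the local background. The median over members was 4.78, 4.7 and 4.78 in the 3 shT2 samples, and 7.73, 7.63 and 7.82 over regions peaked in all 6. Ranked by −log10 q within its own list, the median member stood at percentile 43.7, 47.1 and 44.6, above regions found in a single shT2 sample (18.4 to 19.1) and below regions peaked in all 6 samples (80.3 to 81.5). Between 8.81% and 9.49% of members reached the strongest 25% of a list. The shNC3-only regions stood at a median percentile of 51.6, 44.8 and 49.8 in the shNC3 lists, with median folds of 5.26, 5.25 and 5.1. Of them, 14.1%, 12.1% and 13.0% reached the strongest 25%, so middling strength was not particular to the members.

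When each peak's fragments were thinned to the depth of the shallowest library, which drops peaks and leaves the length of the others as deposited, 3291 of the 4447 members (74.0%) still had a passing peak in all 3 shT2 lists, and 39 (0.877%) had none in any. Applied anew to the thinned lists, the rule chose 3387 regions, of which 97.1% overlapped a member. The number also moved with the strictness of presence, to 2096 regions when only peaks of 5-fold enrichment or more were counted and 2450 when peaks had to cover at least 50% of the region. These 2096 regions overlap 997 (22.4%) of the members, and the median summit fold over all members lay under 5 in each shT2 sample. Without shT2 replicate 1 or 3 the rule, which then asks for presence in fewer samples, chose 6873 and 6741 regions.

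At the border of the rule, the 5 members nearest to an shNC3 peak lay 3 to 14 bp from it, in DCTN5, ATP2A2, ROR1, UNC5B and NUP205. The 5 regions that missed the rule by the least overlap each had a single shNC3 peak of 287 bp, as in VPS37B, where shT2 covered 315, 319 and 303 bp and 1 shNC3 sample covered 287 bp. Members and near misses were thus continuous. Over the whole set the median distance to the nearest shNC3 peak was 4080.5 bp. It was at most 1 kb for 976 members (21.9%), over 5 kb for 2020 (45.4%) and over 50 kb for 521 (11.7%). The counts over 5 kb and over 50 kb include 5 members on sequences without any shNC3 peak. For shNC3-only regions the share over 5 kb from an shT2 peak was 47.1% and the share over 50 kb was 22.2%. Members far from any peak of the other hairpin were thus the less common of the 2 sets.

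Members were rarer at gene starts than the other sets of regions, and most lay in gene bodies. By the position of the midpoint, 384 members (8.64%) lay within 2 kb of a RefSeq gene start, against 26.9% of regions peaked in all 6 samples, 25.0% of shNC3-only regions and 12.6% of the 53567 other merged regions. Gene ends held 460 members (10.3%), against 11.4%, 4.98% and 7.27% in the same order. Gene bodies held 2894 (65.1%), against 48.5%, 50.9% and 65.7%, so that the gene-body share was close to that of the other merged regions. A further 523 (11.8%) lay more than 2 kb from any gene, against 6.28%, 12.4% and 9.72%. Another 186 (4.18%) lay at an edge of a gene whose strand was not listed, and the start table lists none on chromosome 8, where 140 members lie. Against shNC3-only regions and regions peaked in all 6 samples, the low share at starts was also seen at equal width. Under 500 bp it was not seen against the other merged regions, with 11.1% of members and 11.6% of those regions at starts. Among regions of 1000 to 2000 bp the share at gene starts was 7.84% for members, 25.3% for shNC3-only regions, 33.9% for regions peaked in all 6 samples and 15.5% for the other merged regions. Among those of 500 to 1000 bp it was 9.86%, 20.3%, 33.8% and 13.4%.

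Along genes, members lay more often near the downstream end than near the start, as did regions found in 1 or 2 shT2 samples and no shNC3 sample. The profile uses the 8941 protein-coding genes of at least 20 kb with a listed strand, and 2866 members fell within 10 kb of exactly 1 of them. Of the 2251 inside the gene, 200 (8.88%) lay in the first 10% of its length and 740 (32.9%) in the last 20%. The last 10% alone held 430 (19.1%). Regions peaked in all 6 samples had 23.4% in the first 10% and 24.0% in the last 20%, and shNC3-only regions had 25.2% and 14.1%. Regions found in 1 or 2 shT2 samples and no shNC3 sample had 9.08% in the first 10% and 27.2% in the last 20%, so the low share at the start was not particular to the members. A further 488 of the placed members (17.0%) lay up to 10 kb past the gene end and 127 (4.43%) up to 10 kb before its start, against 13.7% and 11.6% for regions peaked in all 6 samples. Shares for shNC3-only regions were 5.43% past the end and 14.0% before the start. Members that passed at equal depth had 9.23% in the first 10% and 33.2% in the last 20%, and so differed little from all placed members. With only peaks of at least 5-fold enrichment counted, the regions chosen by the rule had 12.9% in the first 10% and 33.0% in the last 20%. The share in the first 10% was thus higher among stronger peaks.

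**Figure D1:**
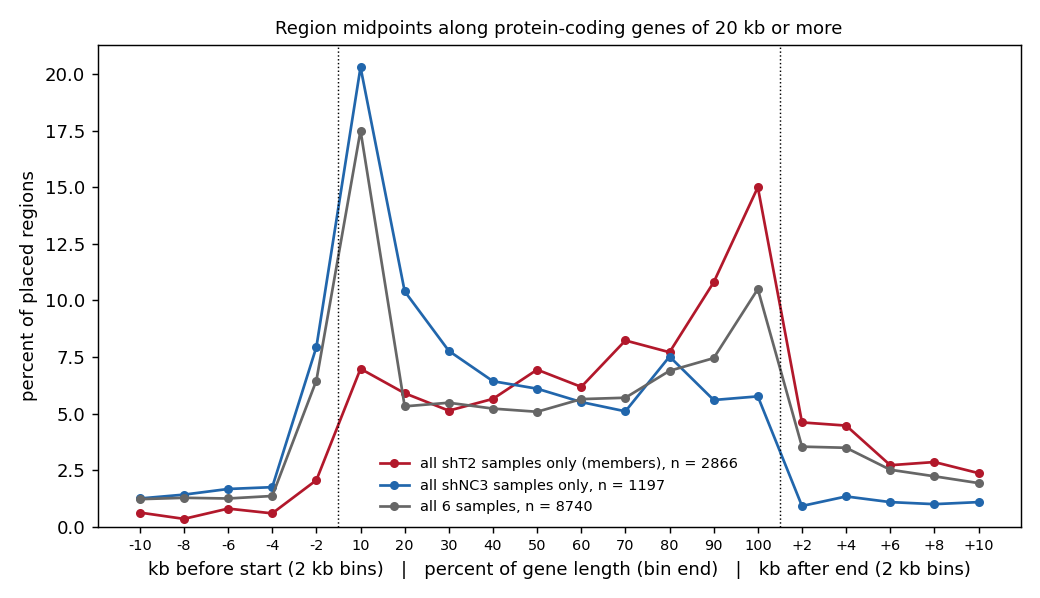
Position of region midpoints along protein-coding genes of 20 kb or more, as the percent of placed regions (y axis) in 2 kb bins outside the gene and in bins of 10% of the gene's length inside it (x axis, transcription left to right). The members (red, 2866 regions) are low at the start and highest in the last bin of the gene, while shNC3-only regions (blue, 1197) and regions peaked in all 6 samples (grey, 8740) are highest in the first bin.

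Peaks outside both hairpin-specific sets gave a measure of this position that the rule did not use directly, although leaving out those sets is itself a choice made on the same lists. In these peaks the share in the last 20% of a gene was 25.3%, 25.3% and 25.8% in shT2 and 23.2%, 23.5% and 23.0% in shNC3. The 3 shT2 values lay above the 3 shNC3 values, with means of 25.5% ± 0.289 and 23.2% ± 0.252 (SD, n = 3 each; two-sided exact permutation p = 0.1, the smallest that 3 against 3 can give). Within regions peaked in all 6 samples the order was the opposite. There the share was 24.0%, 24.0% and 24.7% in shT2 and 25.9%, 25.8% and 25.7% in shNC3 (exact permutation p = 0.1). The direction thus depended on which peaks were counted.

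The strongest members by rank lay mostly outside genes, with others in gene bodies, at a gene end and at a gene start. A region beside RPS6KA2, a ribosomal S6 kinase gene (chr6:166396619-166400982, hg38, 8381 bp from the gene), had peaks on 4364, 4285 and 4215 bp in the shT2 samples, in replicate order, with summit folds of 21.8, 20.8 and 24.4. A region beside DLG1, a scaffold of cell junctions and synapses (chr3:197035622-197037654), had folds of 19.5, 20.2 and 16.9. The region at the end of HNRNPK (chr9:83968541-83969677), an RNA-binding protein of the spliceosomal hnRNP family, covered 1137 bp in each shT2 sample with folds of 15.9, 12.4 and 17.6. Its width was the same in the 3 samples, and the nearest shNC3 peak was 428 bp away.

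In DDX3X, an RNA helicase gene (chrX:41346897-41348580), the covered length was 1463, 1684 and 1684 bp, with folds of 12.8, 13.3 and 10.8. In CHCHD3, a gene of the mitochondrial inner membrane (chr7:132790744-132793896), it was 3153, 2540 and 3049 bp. These sites had no shNC3 peak by the rule, at distances of 744 bp for DDX3X and 14223 bp for CHCHD3. By contrast, 3 narrow regions of 293 to 417 bp at chr16:46389877-46395014, beside the centromeric heterochromatin, ranked high by −log10 q (56.9 to 225) with summit folds of only 1.79 to 2.23. A low fold with a high −log10 q goes with many fragments in both the pulldown and the background, and these 3 are the least typical of the strong members.

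The widest member lay in YPEL1 (chr22:21728752-21735506) and was covered over 6423, 6755 and 6387 bp. Wide members also lay in ADAMTS17, a metalloprotease gene (5258, 5033 and 4477 bp), and in GRK3, a kinase of G protein-coupled receptors (5171, 4837 and 4587 bp). EML5, a microtubule-associated protein gene, had one of 4270, 4252 and 5017 bp that was also among the strongest, with folds of 15.2, 15.9 and 12.2. Replicates differed more at others. The HK3 (hexokinase) member covered 6125, 4645 and 3775 bp and the TTC28 member 6069, 4886 and 3392 bp, highest in replicate 1 in both.

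The member at the divergent start of ELAPOR1 and CFAP276 (chr1:109112822-109115087) was the strongest gene-start member. It covered 2266 bp in each shT2 sample, with folds of 14.2, 19.1 and 14.3, and its left end is the EcoRI site printed above. The INSM2 start was covered over 3113, 3610 and 2825 bp and lay 127333 bp from the nearest shNC3 peak. The RGS4 start was covered over 1403, 1903 and 2045 bp, the H4C5 start over 1472, 1786 and 1477 bp, and the start of ZNF254, a zinc finger gene of chromosome 19, over 1334 bp in each. BMPR1B, a BMP receptor gene, had the narrowest of the 10 leading gene-start members (497, 693 and 612 bp). The remaining leading gene starts were those of FLRT1, TFDP2, MARCHF11 and RSL24D1.

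Members lay in or within 2 kb of 2418 of 20033 protein-coding genes (12.1%), and 481 of 18303 lncRNA genes (2.63%). Genes with a member were long, with a median of 55.2 kb against 38.3 kb for genes with an shNC3-only region, 28.8 kb for genes with any merged region and 24.1 kb for all protein-coding genes. By length, 3.02% of genes under 10 kb held one, 9.58% from 10 to 30 kb, 18.3% from 30 to 100 kb, 22.5% from 100 to 300 kb and 17.5% above. Per Mb of gene length the counts were 7.71 members in the shortest class and 0.991 in the longest. They were 9.25 and 0.267 for shNC3-only regions and 126.0 and 1.09 for regions peaked in all 6 samples. These counts take in the 2 kb on each side of a gene, and the gene length does not. That raises the values of short genes most, so the order among the shorter classes cannot be read from them. Most such genes, 1560, held a single member, 760 held 2 to 4, 98 held 5 or more and 15 held 10 or more. A region peaked in all 6 samples was also present in 1718 (71.1%) of the member genes, and 245 had no region touched by an shNC3 sample. Both a member and an shNC3-only region lay in 139 genes, 5.75% of the former and 9.89% of the 1406 genes with the latter.

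ALK, a receptor tyrosine kinase of the developing sympathetic nervous system and a neuroblastoma oncogene, had the longest summed members. Its 25 members covered 32.6, 37.0 and 31.7 kb in shT2 replicates 1 to 3. Over the gene (chr2:29192774-29921586) and 2 kb on each side of it, all peaks together covered 54.1, 54.3 and 53.1 kb in shT2 and 2.38, 1.57 and 0.85 kb in shNC3. Members made up 62.7% of the mean shT2 coverage, and the rest lay in peaks of fewer shT2 samples or in regions that shNC3 samples also touched. PRKCA, protein kinase C alpha, held the most members, 28, with total coverage of 74.4, 68.0 and 60.6 kb in shT2 and 22.2, 15.8 and 17.8 kb in shNC3. MSI2, an RNA-binding regulator of translation, held 19, with 88.7, 90.0 and 87.6 kb against 24.8, 17.5 and 23.4 kb. GSE1, a partner of histone deacetylase complexes, held 23 members in 153.0, 162.0 and 149.0 kb of total coverage, and was also covered over 78.5, 66.5 and 83.2 kb in shNC3. In these 4 genes every shT2 value lay above every shNC3 value, which the choice of genes with the most members favours. Members were the larger share of shT2 coverage in ALK alone of the 4. They made up 31.8% of the mean shT2 coverage in PRKCA, 23.8% in MSI2 and 16.2% in GSE1.

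Other genes had little or no shNC3 coverage. ELAPOR1 held 14 members, and its covered length was 22.0, 22.3 and 22.9 kb in shT2 and 0 in each shNC3 sample. C7, a complement component gene, held 5, with 12.6, 13.0 and 11.0 kb against 0. EXOC4, an exocyst subunit gene, held 10, with 20.6, 20.4 and 16.5 kb against 0, 0.536 and 0 kb. GRK3 held 16, with 31.1, 32.6 and 33.0 kb against 2.56, 3.03 and 3.18 kb, and EML5 14, with 29.0, 28.0 and 30.6 kb against 1.24, 1.89 and 1.45 kb. Members were 82.7% of the shT2 coverage of ELAPOR1, 90.1% in C7 and 53.4% in EXOC4. Other leading genes were the forkhead factor gene FOXN3 (13 members), the homeobox genes ZFHX3 (17) and MEIS2 (10), the corepressor gene CTBP2 (10), the histone methyltransferase gene ASH1L (10) and SMARCC1 (10), of the BAF remodelling complex. ATRX, a chromatin remodeller gene with 8 members, had uneven control coverage, at 8.73, 2.14 and 5.32 kb in shNC3 against 22.8, 24.9 and 21.5 kb. PRICKLE1, of the planar cell polarity pathway, held 12 members, ST8SIA2, which adds polysialic acid to the neural cell adhesion molecule, 6, and the ubiquitin ligase gene MARCHF11, 8.

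**Figure D2:**
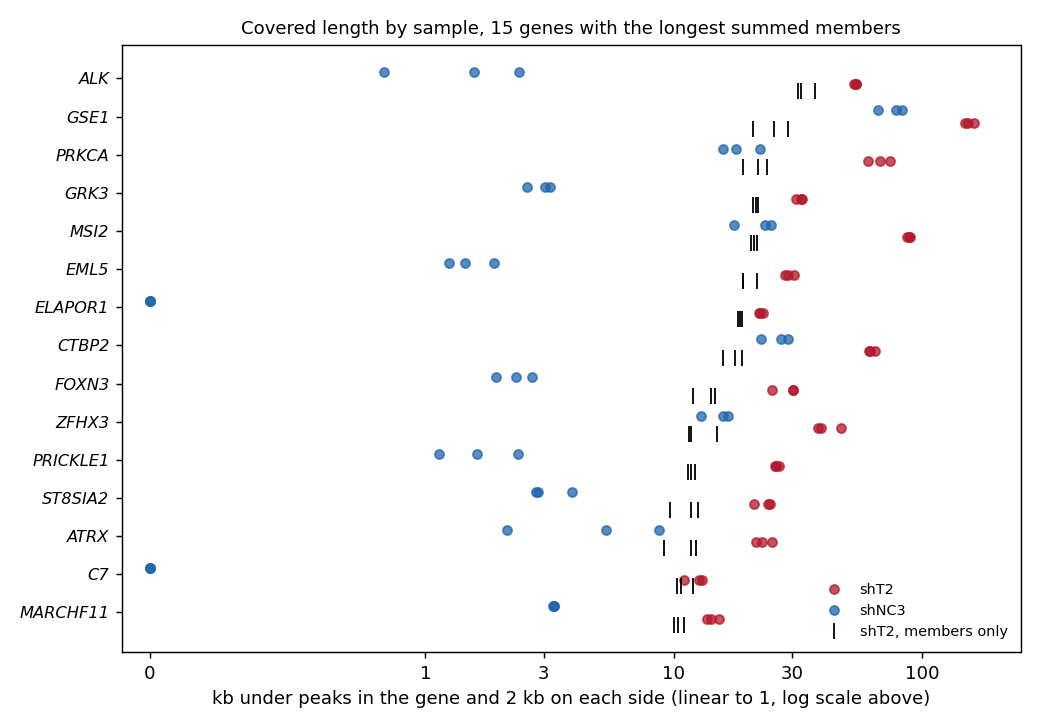
Covered length by sample (x axis, kb under peaks in the gene and 2 kb on each side, linear to 1 and logarithmic above) in the 15 protein-coding genes with the longest summed members. Each dot is 1 sample, red for shT2 and blue for shNC3, and black ticks give the part in members for each shT2 sample; in each gene shown the red dots lie to the right of the blue dots, and ELAPOR1 and C7 are at 0 in shNC3.

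Some members lay close together on a chromosome, which was not compared with other sets of regions. When members up to 20 kb apart were joined, 2065 (46.4%) stood alone, and 53 clusters of 5 or more held 335. The largest had 17 members over 101.0 kb at ELAPOR1 and CFAP276, where shT2 samples were covered over 25.2 ± 0.903 kb and shNC3 samples over 0 (SD, n = 3 each). The GRK3 cluster had 14 members over 66.2 kb, with 26.2 ± 1.23 kb against 0.535 ± 0.244 kb. The ALK cluster had 12 over 102.0 kb, with 22.2 ± 0.418 kb against 0. A cluster of 9 at HNRNPC, another hnRNP gene, had 25.9 ± 0.506 kb against 5.82 ± 1.37 kb, and one of 7 at IGF2BP3, an RNA-binding protein gene, had 9.52 ± 1.0 kb against 0. Members were 3.03% of the merged regions on chromosome 19 and 7.58% on chromosome 14, the ends of the range over chromosomes 1 to 22 and X. On chromosome 19 they were fewer than the shNC3-only regions, at 0.923 members for each, and on chromosome 7 there were 3.47 for each.

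Gene lists were read against the 12.1% of all protein-coding genes that held a member, with no test, and gene length differs between them. The lists also differ in how many genes had any merged region, which the shares do not adjust for. Such genes were 13034 of all 20033, 30 of the 33 TDP-43 targets and 28 of 33 disease genes. They were 17 of 41 glutamate and GABA receptors and 45 of 96 potassium channels. Of 33 genes with cryptic exons or altered polyadenylation on TDP-43 loss, 12 (36.4%) held a member; their median length was 80.5 kb. TRAPPC12, of vesicle transport, held 8, with total coverage of 29.0, 32.9 and 32.9 kb in shT2 and 15.8, 15.0 and 14.0 kb in shNC3. INSR, the insulin receptor, held 4 (9.92, 12.5 and 6.12 kb against 2.25, 0 and 1.11 kb), and UNC13A, a synaptic vesicle priming factor, held 3 (9.41, 8.58 and 9.05 kb against 1.44, 1.78 and 3.93 kb). PTPRN2 held 3, and PXDN held 2 (44.9, 44.3 and 43.1 kb against 32.7, 27.7 and 32.4 kb). In these 5 genes every shT2 value lay above every shNC3 value, as the presence of members, at 0 in shNC3 by the rule, favours.

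Of 34 genes that act on R-loops, 13 (38.2%) held a member, at a median length of 52.7 kb. Any merged region was present in 32 of the 34, against 13034 of all 20033 protein-coding genes. Of all protein-coding genes of 30 to 100 kb, 18.3% held a member. The RNA helicase gene DHX9 held 5, with total coverage of 21.6, 20.3 and 19.3 kb in shT2 and 8.14, 8.39 and 9.04 kb in shNC3. ADAR, an RNA-editing enzyme gene, and THOC5, of the THO mRNA export complex, held 3 each. Among 33 genes of amyotrophic lateral sclerosis and frontotemporal dementia, 6 (18.2%) held a member, among them TIA1 (3 members), ATXN2 (2), MATR3 (3) and MAPT (1).

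Neuronal lists spread on both sides of the share of all protein-coding genes, which also counts genes without any merged region. Synaptic vesicle and scaffold genes held members in 8 of 43 (18.6%), among them the presynaptic adhesion gene NRXN2 (3 members, total coverage 24.9, 27.6 and 22.9 kb against 8.07, 3.83 and 3.12 kb) and the postsynaptic scaffold gene SHANK1 (4 members). Voltage-gated calcium and sodium channels had 5 of 40 (12.5%), axon guidance genes 6 of 59 (10.2%), glutamate and GABA receptors 4 of 41 (9.76%) and potassium channels 9 of 96 (9.38%). GRIN1, the obligatory NMDA receptor subunit, held 4 members, with total coverage of 11.1, 11.8 and 10.6 kb in shT2 and 0.312, 0.665 and 0 kb in shNC3. UNC5A, a netrin receptor gene, held 4, and SLIT3, a secreted guidance cue, 8. Receptor tyrosine kinases had 9 of 38 (23.7%): PDGFRA followed ALK with 6 members and total coverage of 24.7, 25.8 and 24.6 kb against 7.93, 6.82 and 6.71 kb.

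SH-SY5Y is known as a noradrenergic type of neuroblastoma line, and lists of both neuroblastoma cell states were counted. Noradrenergic genes held members in 4 of 19 (21.1%): among them, TFAP2B held 3, and CHGA and ISL1 held 1 each. The CHGA (chromogranin A) member covered 1.61 kb in each shT2 sample. Mesenchymal genes held members in 0 of 21, and 9 (42.9%) held an shNC3-only region, against 7.02% of all protein-coding genes. The summed mesenchymal marker coverage given above, mostly COL1A1, was also higher in shNC3, and its part in these counts was not tested. Collagens had 2 of 44 (4.55%), and 6 (13.6%) with an shNC3-only region.

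Replication-dependent histone genes, most of them short, held members in 15 of 69 (21.7%). Their median length was 0.494 kb, and the 2 kb on each side counted for every gene is longer than that. These 15 genes share 12 members, since neighbours in a cluster fall in 1 region: H3C1 and H4C1 share the same 2 members, covered over 2.0, 2.81 and 1.23 kb in shT2. The H2AC13 member covered 1.49 kb in each sample and the H2BC12 member 1.51 kb. No histone gene held an shNC3-only region. Zinc finger genes held members in 35 of 250 (14.0%) on chromosome 19 and 55 of 268 (20.5%) elsewhere, with ZNF124 first at 7 members (13.7, 11.5 and 14.0 kb against 1.52, 1.4 and 1.83 kb). ADAM and ADAMTS proteases had 7 of 44 (15.9%), cytosolic ribosomal protein genes 7 of 87 (8.05%), HOX genes 3 of 39 (7.69%) with HOXD3 first at 4 members, and clustered protocadherins 2 of 53 (3.77%), which share 1 member. No member lay at any of 392 olfactory receptor genes, whose expression is known from olfactory neurons. Only 1 of these genes had any merged region, so the lack of members was all but set beforehand.

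**Figure D3:**
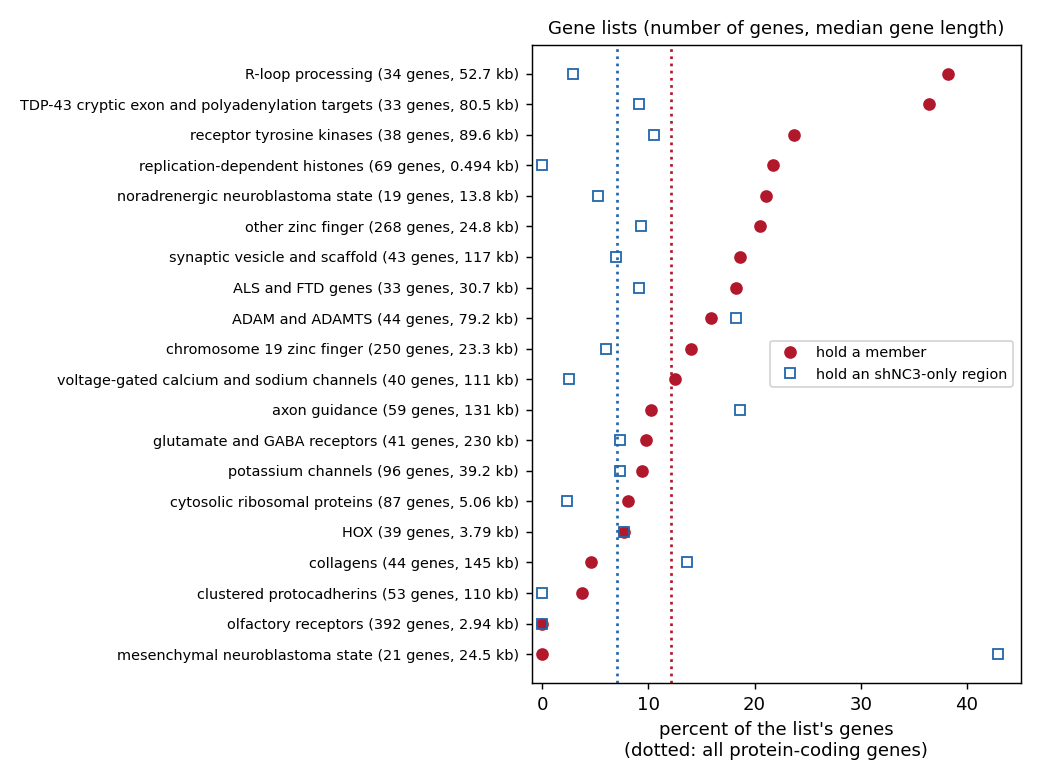
Percent of the genes of each list (x axis) that hold a member (red) or an shNC3-only region (blue squares), with the number of genes and their median length in brackets; dotted lines mark all protein-coding genes (12.1% and 7.02%). R-loop processing genes (38.2%) and TDP-43 targets (36.4%) have the highest shares with a member, and mesenchymal genes have 0% with a member and 42.9% with an shNC3-only region.

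The neighbourhood of the members was tested on regions the rule did not choose, those peaked in all 6 samples. They come from the same lists as the members, so they are separate from the rule in their regions and not in their samples. The length under peaks was scaled to each sample's total, and limma compared log2(scaled bp + 500) between the hairpins over all 15574 regions with a Benjamini-Hochberg threshold of 0.05. Of all these regions, 1656 (10.6%) were longer and 2515 (16.1%) shorter in shT2. Of the 1430 within 5 kb of a member, 395 (27.6%) were longer and 59 (4.13%) shorter. Of the 4172 in protein-coding genes that hold a member, 767 (18.4%) were longer and 293 (7.02%) shorter. The median log2 difference was 0.175 within 5 kb of a member, 0.0291 in member genes and -0.106 over all regions. The share of longer regions fell with distance, from 33.9% at up to 1 kb to 24.7% at 1 to 5 kb, 15.5% at 5 to 20 kb, 8.86% at 20 to 100 kb and 7.18% beyond. Around shNC3-only regions the picture was turned: 14 of 842 (1.66%) within 5 kb were longer in shT2 and 374 (44.4%) shorter. Lengthening near members thus had its counterpart near the regions of the other hairpin.

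Without scaling, the median over all regions moved by 0.128 on the log2 scale, the longer share of the calls went from 39.7% (1656 against 2515) to 60.5% (1763 against 1152), and that near members from 87.0% to 94.6%. With peaks kept only if they would pass at equal depth, their lengths as deposited, 29.3% near members and 11.3% of all regions were longer; counting only peaks enriched 5-fold or more, the shares were 15.6% and 6.23% (87 and 597 regions). Leaving out 1 sample lowered the count near members to 261 without shT2 replicate 2, with 18.3% near members and 6.83% of all regions longer (1063 regions); without shT2 replicate 1, 1080 of all regions were longer. The shorter count near members fell to 34 without shT2 replicate 1, 39 without shT2 replicate 3, 39 without shNC3 replicate 2 and 37 without shNC3 replicate 3. In member genes the longer count fell to 502, 493 and 507 without shT2 replicates 1, 2 and 3, and the shorter count to 192 without shT2 replicate 1 and 193 without shNC3 replicate 3.

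**Figure D4:**
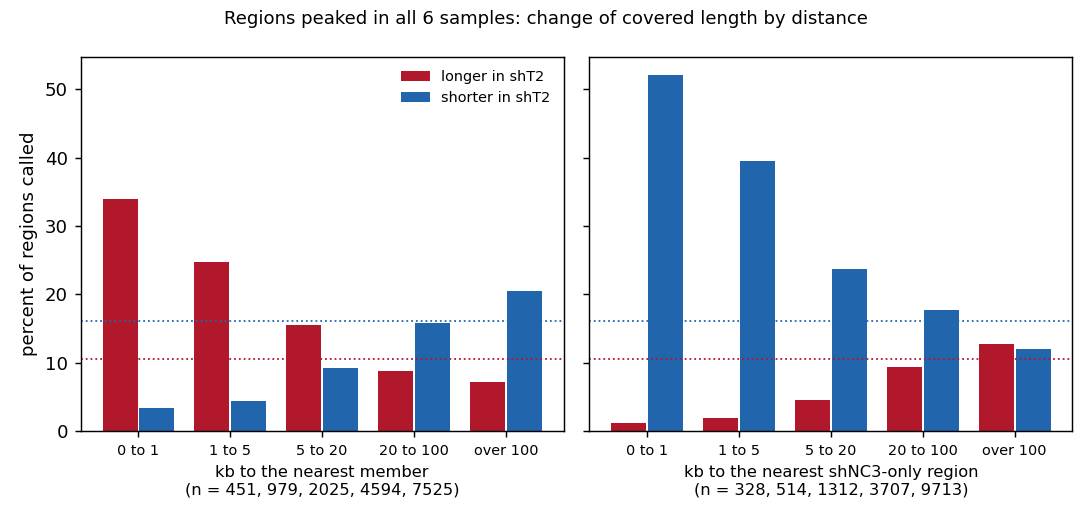
Regions peaked in all 6 samples by their distance (x axis, kb) to the nearest member (left) or nearest shNC3-only region (right), with the percent (y axis) called longer (red) or shorter (blue) in shT2 by limma; dotted lines mark all 15574 regions (10.6% and 16.1%). Longer calls fall from 33.9% next to members to 7.18% beyond 100 kb, and shorter calls rise from 3.33% to 20.5%.

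The regions near members that lengthened most had a short peak in shNC3 and a long one in shT2. At the edge of NRXN2 and SLC22A12 (chr11:64599907-64608069) the covered length was 7.44, 8.16 and 6.75 kb in shT2 and 0.585, 0.328 and 0.287 kb in shNC3, which is 3.05 on the log2 scale (SE 0.14, limma adjusted p = 0.000141). In KCNQ1, a potassium channel gene, it was 5.87, 4.84 and 3.81 kb against 0.41, 0.325 and 0.399 kb (2.49, SE 0.17, limma adjusted p = 0.000414). Beside the end of MEIS2, a homeobox factor of neural crest and brain, it was 4.49, 5.14 and 4.64 kb against 0.863, 0.343 and 0.485 kb (2.23, SE 0.18, limma adjusted p = 0.000535). The hairpins did not overlap in any of these. GNG4, a G protein gamma subunit gene, had 5.32, 5.82 and 4.5 kb against 0.411, 1.2 and 0.491 kb (2.18, SE 0.26, limma adjusted p = 0.00189).

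Fewer regions near members shortened, and those changes were smaller. The largest was at CENATAC, a splicing factor gene, with 0.347, 0.42 and 0.739 kb in shT2 and 2.57, 1.82 and 1.73 kb in shNC3 (-1.45, SE 0.21, limma adjusted p = 0.00377). Regions in SAMD4B (-1.33, limma adjusted p = 0.0286), MYOZ3 (-1.27, 0.00878), DPP8 (-1.26, 0.00991) and AFAP1 (-1.21, 0.0395) followed. In AFAP1 the shT2 samples covered 0.413, 0.34 and 1.52 kb, so 1 sample stood well above the other two, and the shNC3 samples 1.81, 2.1 and 2.07 kb.

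Summed over all bases within 5 kb of members but outside them, the scaled covered length was 4.88, 4.97 and 4.9 Mb in shT2 and 2.71, 2.57 and 2.68 Mb in shNC3. The 3 shT2 values lay above the 3 shNC3 values, at 4.92 ± 0.043 Mb against 2.65 ± 0.0736 Mb (SD, n = 3 each), a ratio of 1.85 (two-sided exact permutation p = 0.1, the smallest possible). Around shNC3-only regions the same sum was 1.59, 1.63 and 1.57 Mb in shT2 and 3.13, 3.01 and 3.14 Mb in shNC3, a ratio of 0.516. The windows were placed by the rule on the same lists, and can hold peaks found in fewer shT2 samples. Their placement favours shT2, as that around shNC3-only regions favours shNC3, so the test is no separate support. The coverage beside members was thus longer in the hairpin that chose them, as it was beside the regions of shNC3.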

How the data were processed

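The authors deposited 1 narrow-peak list for each of the 6 samples. Alignment to hg38 and peak calling used, per the submitters' processing notes, MACS2 2.2.6, SAMtools and Bowtie2 2.4.4. Per the labels' protocols, an RNase H-treated control was made; the sources used here do not state which control MACS2 was given. The deposited lists give a score (not used in any result), the fold enrichment at the summit (a ratio), and −log10 p-values and −log10 q-values, as the authors' peak caller wrote them; peaks have q-values up to 0.01.

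Peaks were merged in Python 3.11.15 and positions were taken from RefSeq tables of GRCh38.p14, as hg38 coordinates, 1-based. Depth was inferred from fold and −log10 p up to 40, assuming a Poisson p-value. For equal depth, each peak's fragments were thinned to the shallowest library and peaks kept above its lowest −log10 p; peak lengths stayed as deposited. Regions peaked in all 6 samples were compared by limma 3.58.1 (R 4.3.3), using lmFit and a robust eBayes with trend, tested on simulated data. Single values used a two-sided exact permutation test.

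Members, gene lists and tests were chosen with earlier results of these data known. The named regions are the 15 widest, the 15 highest in rank, the 10 at gene starts and the 10 intergenic highest in rank, and 5 on each side of the rule's border; named genes are the 15 with the longest summed members, the 15 with most members and up to 5 per list; named shared regions are the 5 per direction with the largest log2 difference within 5 kb of a member. The text describes the leading ones of each. Sequence came from the RefSeq promoter windows; no whole genome was used. Some named results are not reported here.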

Additional observations from a re-analysis of the deposited data

How the results depend on the processing

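Number of members: 2096 with peaks of at least 5-fold enrichment, 2450 when peaks had to cover at least 50% of the region, and 5072 to 6873 when 1 sample was left out. Protein-coding genes with a member numbered 1495 and 1578 under the first and second of these. The shares at a gene edge, more than 5 kb from an shNC3 peak, in the first 10% and in the last 20% of genes kept within 1.5 times of their values under every alternative run; the along-gene shares were added after the data had been seen. Of 44 named members, 31 remained with 5-fold peaks, 42 at equal depth and 30 when peaks up to 1000 bp apart were merged.

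Regions longer in shT2 numbered 597 in all, 87 near members and 203 in member genes with 5-fold peaks, and those shorter 744, 9 and 38. Without scaling the shorter counts were 1152, 22 and 123, and at equal depth 33 near members and 154 in member genes. Leaving out 1 sample gave 1063 to 1677 longer in all, 261 to 385 near members and 493 to 770 in member genes, and for shorter 1748 to 2215, 34 to 53 and 192 to 251. The ratio of coverage beside members was 2.06 without scaling, 2.52 within 2 kb and 1.35 within 20 kb.

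Same-numbered samples did not deviate together (correlations -0.041 to -0.001, and -0.024 to 0.036 for samples of unlike number). A pairing by number was thus not seen in covered length, which does not show whether samples were handled in pairs. With a replicate block, 1722 regions were longer and 2173 shorter, 408 and 47 near members, and 784 and 259 in member genes.

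Covered length counts bases under called peaks, not signal strength, and inferred depth differed 1.9-fold between the hairpins; the equal-depth setting matches which peaks pass, not their lengths. Cut sites could be checked in promoter windows only. Gene starts on chromosome 8 and the strand of some genes were not listed.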

Other observations

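Of 1562 RefSeq microRNA hairpins, 9 overlapped a member and 17 an shNC3-only region, some of them in part. The member at EVL, an actin regulator gene, holds MIR342 and MIR151B and had peaks on 436, 1497 and 484 bp in the 3 shT2 samples. The member at EIF4A2, a translation initiation factor gene, holds MIR1248 (1943, 1602 and 966 bp). MIR21 in VMP1 and MIR143 in CARMN overlapped shNC3-only regions. These counts are small and were not tested.

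Among lncRNA genes, FTX had the longest summed members, 7 in number, with total coverage of 14.1, 15.1 and 13.6 kb in shT2 and 2.13, 2.15 and 4.62 kb in shNC3. TH2LCRR, a lncRNA of the T helper 2 cytokine locus, held 3, with 6.18, 7.21 and 6.77 kb against 0 in each shNC3 sample.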
